A study of Mus musculus with 2 samples.

Results

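The B cell receptor complex and its brakes, 9 genes, were followed through the immune cells of the mouse colon. They were taken by name from 32285 measured genes. The activating members were Cd79a, Cd79b, Ms4a1, Blnk, Btk and Syk, 6 genes in all, and the brakes were Cd22, Cd72 and Ptpn6, 3 genes. The cells were live CD45+ leukocytes, sorted by flow cytometry out of the colons of female littermates at 9 months of age and profiled by single-cell RNA-seq with 10x 3′ chemistry. The groups were 5XFAD, a transgenic model of familial Alzheimer disease whose human transgenes are driven by the neuron-directed Thy1 promoter, and WT. Each genotype was 1 library pooled from 3 mice, so every comparison is between 2 libraries, without replicates and without a test. The 95% intervals cover counting error only.

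The B cell receptor is a surface immunoglobulin that binds antigen and a heterodimer of Cd79a and Cd79b that carries the signal into the cell. On binding, the tyrosine motifs of the heterodimer are phosphorylated and recruit the kinase Syk, which phosphorylates the adaptor Blnk and brings the kinase Btk to its substrate, a phospholipase. Ms4a1 encodes CD20, a membrane protein of mature B cells associated with the receptor. Cd22 and Cd72 are inhibitory receptors with cytoplasmic tyrosine motifs that recruit SHP-1, the phosphatase encoded by Ptpn6, which limits the signal.

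The deposited cluster numbers run from 0 to 16, and each library held 3443 cells. Ptprc, which encodes CD45, was seen in 91.3% of 5XFAD and 97.4% of WT cells. Clusters 0 to 5 are called B cell-like here. In 5XFAD this class held 2364 cells with 12383617 UMIs in all and a median depth of 5087 per cell. In WT it held 2538 cells with 12672379 UMIs and a median depth of 4784. A UMI is a molecular identifier that marks 1 captured transcript. The name rests on 11 B cell markers that exclude the 9 genes. All 11 were detected, and their summed level was 21661 CPM (UMIs of a gene scaled to all UMIs of the class) in 5XFAD and 19942 CPM in WT, against 335 and 776 CPM in the T and innate lymphoid clusters (8 to 14 and 16). The 8 T cell markers summed to 31.1 and 34.7 CPM in the B cell-like class and to 3515 and 3348 CPM in the T and innate lymphoid clusters. Epithelial markers summed to 13.3 and 9.47 CPM and myeloid markers to 15.1 and 19.5 CPM in the B cell-like class. Markers of stroma or endothelium summed to 42.7 CPM in 5XFAD and 82.2 CPM in WT, of which Pecam1, a gene that B cells also express, made up 41.2 and 81.2 CPM. Their part in the ratios was not tested. The median percent of mitochondrial UMIs in the class was 5.01% and 5.05%. Cluster 6 (led by Igha and Jchain) and cluster 7 (led by Egr1, Egr3 and Egr2) also carried the B cell markers and are given by number. In cluster 15, led by Lyz2, Il1b and C1qa, all 11 were detected too, and their sum over both libraries was 19510 CPM, so the sum alone does not set the B cell-like class apart from that cluster. The list includes Cd74 and H2-Aa, genes of antigen presentation that myeloid cells also express. The upper limit on genes per cell differed: 106 WT cells and 0 cells of 5XFAD had 2500 or more detected genes. The genes behind the deposited clustering are not stated and may include these 9, so the height of the members over other cell types is a description.

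In the B cell-like class, Cd22 and Ptpn6 were lower in the 5XFAD library by more than 2-fold, most activating members were lower by less, and Cd79a and Btk were higher. Of the 9 members, 2 had a log2 ratio of 5XFAD over WT at or below -1, where 3.89% of the 9681 genes with at least 50 UMIs in the class did. None of the 9 was at or above 1, where 0.806% of all genes were. A ratio below 0 was found for 7 of 9 members against 61.9% of all genes, and 1 of the 7, Cd72, turned above 0 under another scaling (below). The median of the members was -0.49 and that of all genes was -0.12. All ratios are given on the scale of class totals, on which the median gene sits at -0.12.

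**Figure D1:**
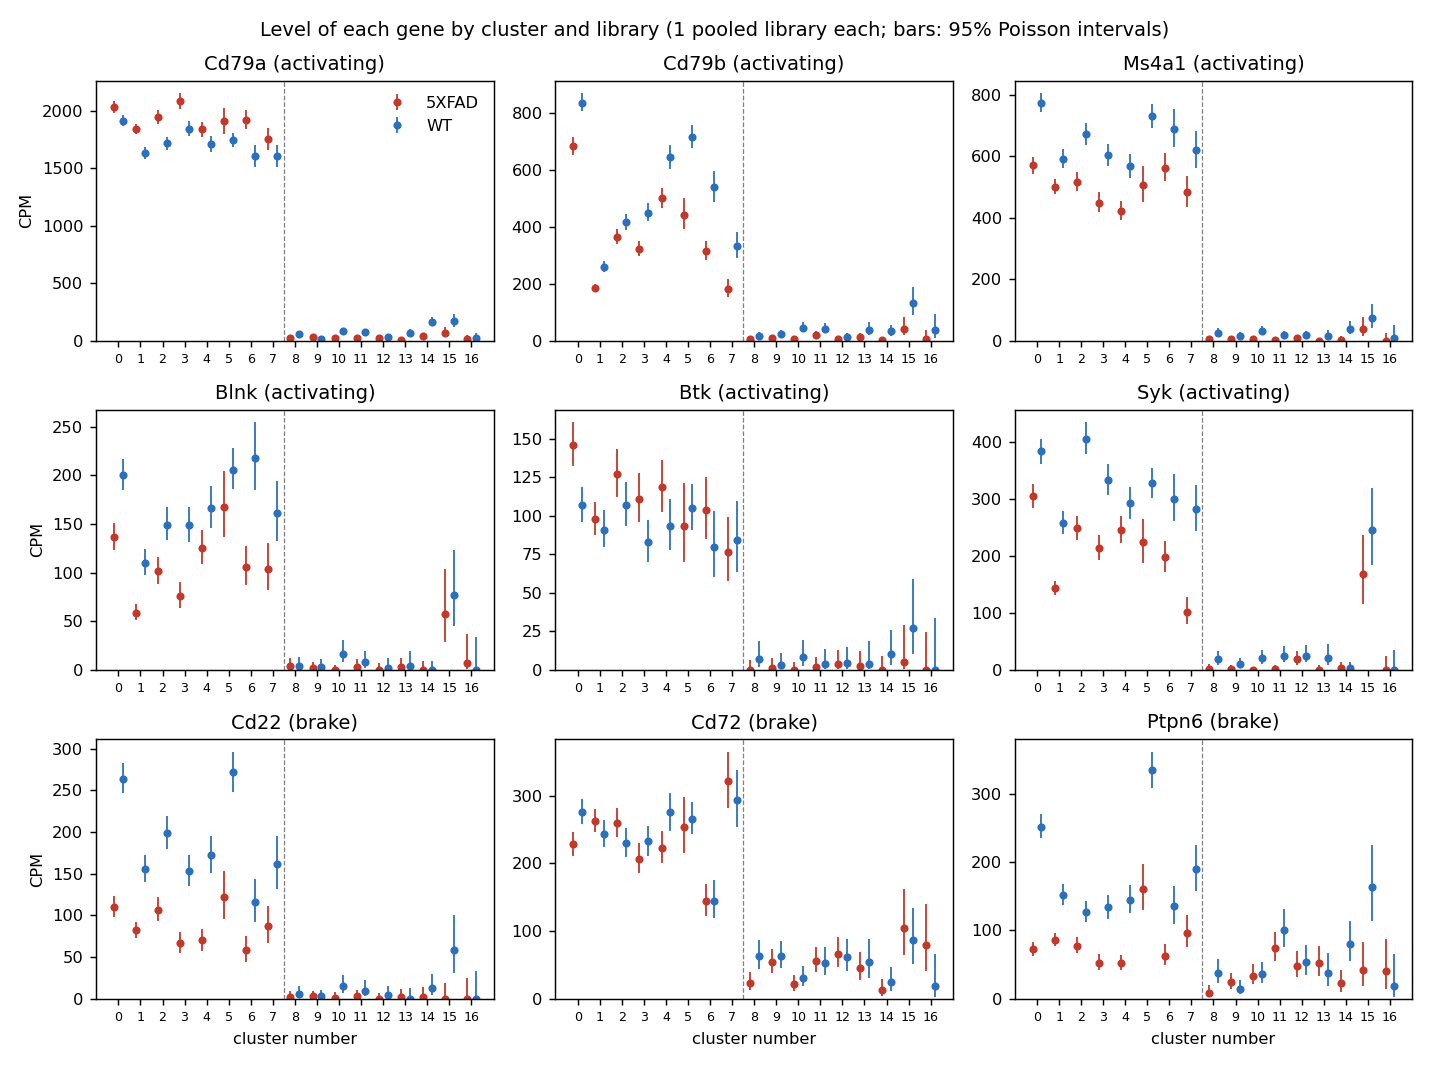
Level of each member (CPM, vertical axis, linear and different for each gene) in clusters 0 to 16 (horizontal axis) of the 5XFAD library (red) and the WT library (blue), with 95% Poisson intervals as bars and a dashed line between clusters 7 and 8. The levels are high in clusters 0 to 7 and low beyond them, except that Syk and Blnk are also measured in cluster 15 and Cd72 and Ptpn6 in most clusters.

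Cd79a and Cd79b form the signalling heterodimer, and their levels differed in opposite directions between the libraries. Cd79a (GRCm38 chromosome 7, 24897381 to 24902197, plus strand) measured 1939 CPM in 5XFAD and, in WT, 1772 CPM, from 24014 and 22459 UMIs. The log2 ratio was 0.13 (0.10 to 0.16), and it ranged from 0.02 to 0.25 over the alternative scalings and corrections. Cd79a was the most even member. Over clusters 0 to 7 it ran from 1750 to 2082 CPM in 5XFAD and from 1604 to 1914 CPM in WT, 1.19-fold in each library, and all 7 pairs of neighbours in the order of levels had overlapping intervals in each. In all 8 clusters it was higher in 5XFAD, with log2 ratios of 0.09 to 0.26, and 17.2% of the 3148 genes with at least 50 UMIs in each of these clusters were higher in all 8.

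Cd79b (chromosome 11, 106311341 to 106314762, minus strand) had 403 CPM in the 5XFAD library and 565 CPM in the WT library, a log2 ratio of -0.49 (-0.54 to -0.44). With equal weights of clusters the ratio was -0.38, and over all alternatives it ranged from -0.59 to -0.36. The level of Cd79b varied far more between clusters than that of its partner. In 5XFAD it ran from 181 CPM in cluster 7 to 684 CPM in cluster 0, 3.77-fold, and in WT from 259 CPM in cluster 1 to 836 CPM in cluster 0, 3.23-fold. Cd79b is itself a leading gene of cluster 0, so its height there belongs to the definition of that cluster. In WT, 5 of the 7 neighbouring pairs in its order of levels did not overlap, and in 5XFAD 2 of 7 did not. The ratio was closest to 0 in cluster 2 at -0.19 and farthest from it in cluster 7 at -0.87, where 181 CPM stood against 333 CPM.

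Ms4a1 (chromosome 19, 11249675 to 11266241, minus strand) was at 503 CPM in 5XFAD against 669 CPM in WT, from 6223 and 8480 UMIs, a log2 ratio of -0.41 (-0.46 to -0.37). Like Cd79a it was even over clusters 0 to 7, with a 1.35-fold spread in 5XFAD and 1.36-fold in WT, highest in cluster 0 and lowest in cluster 4 in each library. Its ratios in the 8 clusters lay between -0.52 and -0.24.

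The antigen-binding part of the receptor gave a mixed picture. Ighm, the heavy chain of IgM, measured 960 CPM in 5XFAD and, in WT, 1508 CPM, a log2 ratio of -0.65, and Ighd, the heavy chain of IgD, was at 334 and 549 CPM, a ratio of -0.72. Igkc, the kappa light chain constant region, was at 4014 and 3754 CPM, a ratio of 0.10. Ighm and Ighd were thus lower in 5XFAD by more than Cd79b, while Igkc and Cd79a were slightly higher.

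Of the cytoplasmic activators, Syk and Blnk were lower in 5XFAD and Btk was higher. Syk (chromosome 13, 52583173 to 52648792, plus strand) had 225 CPM in the 5XFAD library and 337 CPM in the WT library, from 2785 and 4271 UMIs, a log2 ratio of -0.58 (-0.65 to -0.51). Blnk (chromosome 19, 40928927 to 40994535, minus strand) was at 100.2 and 165 CPM, from 1241 and 2086 UMIs, a ratio of -0.72 (-0.82 to -0.61). With equal weights of clusters the Blnk ratio was -0.60, and over all alternatives it ranged from -0.77 to -0.46. Btk (chromosome X, 134542336 to 134583570, minus strand) was at 118 and 98.6 CPM, from 1463 and 1250 UMIs, a ratio of 0.26 (0.15 to 0.37). Syk and Blnk were therefore lower in the library in which Btk was higher.

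Syk and Blnk also varied between clusters more in 5XFAD than in WT. Syk ran from 101 CPM in cluster 7 to 304 CPM in cluster 0 of 5XFAD, 3.01-fold, and from 257 CPM in cluster 1 to 405 CPM in cluster 2 of WT, 1.58-fold. Blnk ran from 58.5 CPM in cluster 1 to 168 CPM in cluster 5 of 5XFAD, 2.87-fold, and from 110 CPM in cluster 1 to 218 CPM in cluster 6 of WT, 1.98-fold. Btk ran from 76.2 CPM in cluster 7 to 146 CPM in cluster 0 of 5XFAD and from 79.5 CPM in cluster 6 to 107 CPM in cluster 0 of WT. All 7 neighbouring pairs in the order of Btk overlapped in each library. Its ratio was above 0 in 6 of 8 clusters, with a range of -0.17 to 0.45, and its interval lay above 0 in clusters 0, 3 and 4.

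Among the brakes, Cd22 and Ptpn6 were the members farthest below WT, and Cd72 stood apart from them. Cd22 encodes a lectin-type receptor for sialic acid, Cd72 a C-type lectin-like receptor, and Ptpn6 the phosphatase that the inhibitory receptors recruit. The promoters of the 3 brakes are shown as a description, and no link of their letters to the ratios was tested. RefSeq promoter windows (build GRCm38.p6, 250 bases before to 50 after the RefSeq start) were matched for 7 of the 9 members, and those of Cd79b and Ms4a1 were not among the matches. Each is printed 5′ to 3′ on the strand of its gene, without bases past the RefSeq start or within GENCODE exons of protein-coding genes. The Cd22 stretch lies at chr7:30879029-30879176, that of Cd72 at chr4:43454629-43454876 and that of Ptpn6 at chr6:124738715-124738959, all on the minus strand. The stretch of Cd22 lies within the GENCODE span of the gene, in which other transcripts start upstream, and those of Cd72 and Ptpn6 end where the GENCODE gene begins. Capitals mark matches to the Ets core GGAAGT, which reads as its reverse complement ACTTCC where it lies on the other strand, or to the EBF core CCCNNGGG, where N is any base. The octamer ATGCAAAT was also searched on both strands and is in none of the 3 stretches.
Cd22: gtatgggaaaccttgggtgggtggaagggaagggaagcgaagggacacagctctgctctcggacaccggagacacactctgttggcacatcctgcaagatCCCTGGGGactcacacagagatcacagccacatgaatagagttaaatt
Cd72: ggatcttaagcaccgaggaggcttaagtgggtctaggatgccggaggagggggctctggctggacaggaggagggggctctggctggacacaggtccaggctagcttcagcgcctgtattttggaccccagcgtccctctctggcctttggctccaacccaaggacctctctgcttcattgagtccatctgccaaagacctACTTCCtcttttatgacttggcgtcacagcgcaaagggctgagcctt
Ptpn6: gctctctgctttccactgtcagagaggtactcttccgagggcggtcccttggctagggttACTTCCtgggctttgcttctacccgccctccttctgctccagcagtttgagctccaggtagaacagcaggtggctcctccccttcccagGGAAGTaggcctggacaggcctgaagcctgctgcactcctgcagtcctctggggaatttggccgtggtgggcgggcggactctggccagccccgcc

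The Cd22 stretch holds 1 EBF core and no Ets core. The Cd72 stretch holds 1 Ets core, the Ptpn6 stretch holds 2, and neither has an EBF core. Over 32851 windows of 300 bases, 23.8% held the Ets core, 13.7% the EBF core and 1.74% the octamer. A match describes the letters only, and GENCODE also lists coding transcripts of Ptpn6 that start downstream of the stretch shown.

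Cd22 (chromosome 7, 30865402 to 30880342, minus strand) was at 90.8 CPM in 5XFAD against 208 CPM in WT, from 1124 and 2634 UMIs, and its ratio of -1.20 (-1.30 to -1.09) placed it among the lowest 2.11% of genes. Ptpn6 (chromosome 6, 124720707 to 124738714, minus strand) was at 76.0 and 196 CPM, from 941 and 2488 UMIs, and its ratio of -1.37 (-1.48 to -1.26) placed it among the lowest 1.23%. Cd72 (chromosome 4, 43446462 to 43454628, minus strand) was at 241 and 255 CPM, from 2984 and 3227 UMIs, a ratio of -0.08 (-0.15 to -0.01). With the median gene set to 0 the Cd72 ratio was 0.044, so its direction depends on the scaling, while Cd22 and Ptpn6 stayed below -1 under each of the alternatives run.

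**Figure D2:**
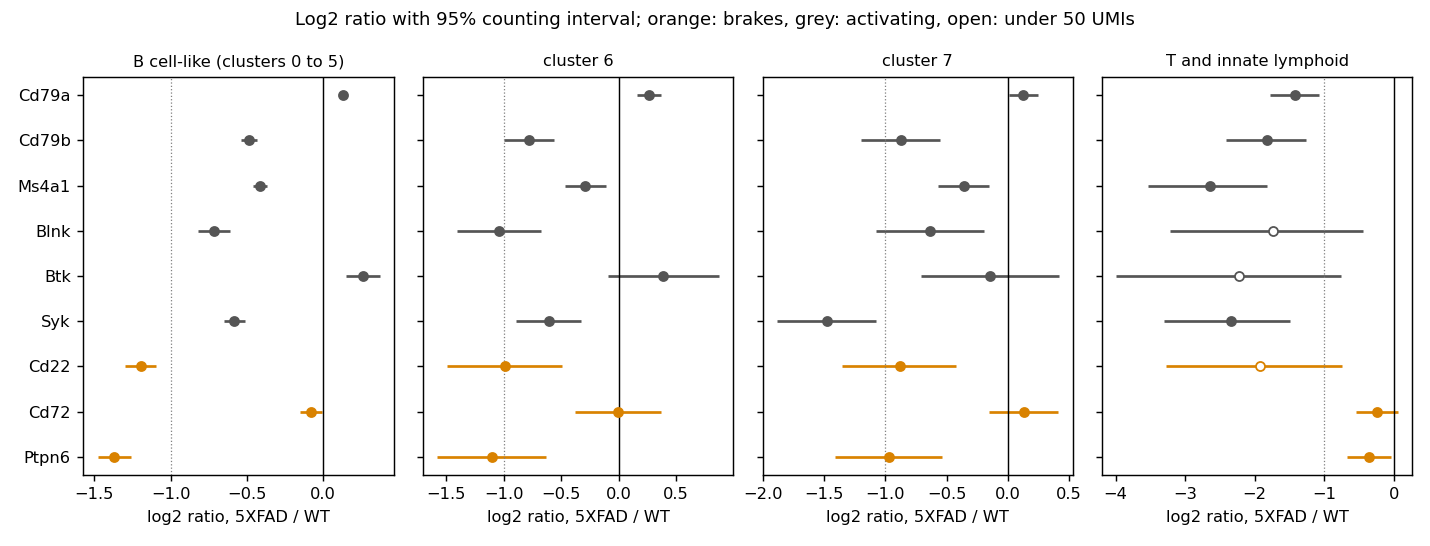
Log2 ratio of 5XFAD over WT for each member (horizontal axis, whose range differs between panels) with 95% counting intervals, in the B cell-like class, cluster 6, cluster 7 and the T and innate lymphoid clusters. Brakes are orange, activating members are grey, and open points rest on under 50 UMIs; Cd22 and Ptpn6 lie at -1.20 and -1.37 in the B cell-like class, and Cd72 lies at -0.08, or 0.044 with the median gene set to 0.

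The order of the clusters differed between the brakes. Cd22 was highest in cluster 5, at 122 CPM in 5XFAD against 271 CPM in WT, and lowest in cluster 6, at 58.2 and 116 CPM. Ptpn6 was also highest in cluster 5, at 161 and 335 CPM, and was lowest in cluster 4 of 5XFAD (51.7 CPM) and in cluster 2 of WT (127 CPM). Cd72 was highest in cluster 7, at 321 and 293 CPM, and lowest in cluster 6, at 144 and 145 CPM. Cluster 5 is led by the heat shock genes Hspa1a and Hspa1b and by Jun.

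The mean log2 ratio of the 3 brakes was -0.88 and that of the 6 activating members was -0.30, a difference of -0.58 (-0.64 to -0.52), which was -0.55 without cluster 5. Relative to the activating mean, Ptpn6 was at -1.07, Cd22 at -0.89 and Cd72 at 0.22, so the lower level of the brakes rested on 2 of the 3 genes. By cluster the difference ran from -0.93 in cluster 0 to -0.01 in cluster 7. It was below 0 in all 8 clusters, and its interval lay below 0 in 7 of them, cluster 7 being the exception. In clusters 1 and 2 the difference was -0.17 and -0.24, and the mean ratio of the brakes was -0.54 and -0.48. Cd22 and Ptpn6 both stayed above -1 in these clusters.

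**Figure D3:**
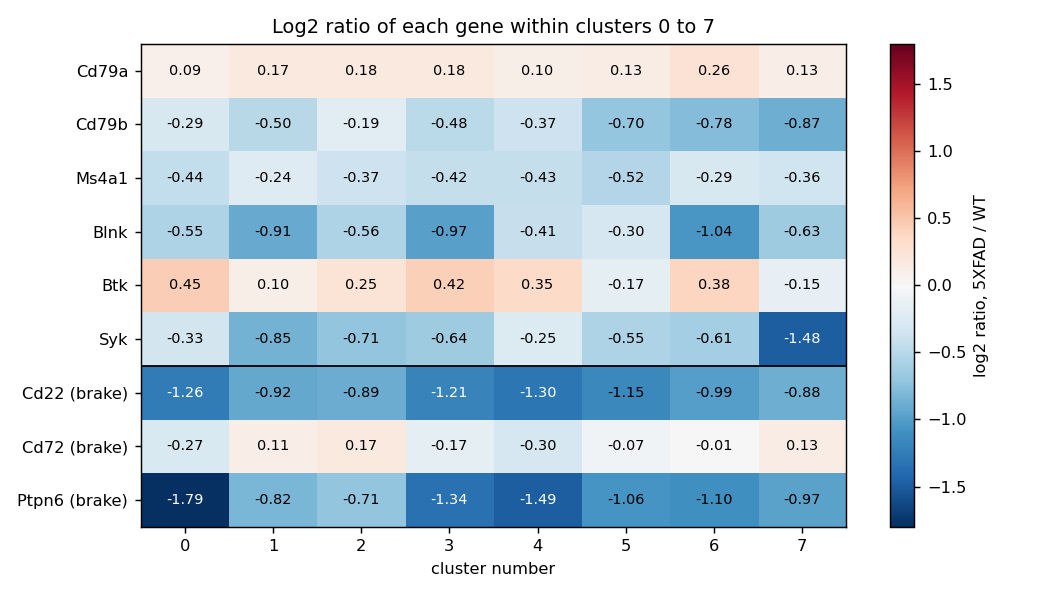
Log2 ratio of 5XFAD over WT for each member (rows, brakes below the line) in clusters 0 to 7 (columns), with blue for lower and red for higher in 5XFAD on the scale of cluster totals. Cd22 and Ptpn6 are blue in each cluster, Cd79a is red in each, and Cd72, whose direction in the pooled class depends on the scaling, changes sign between clusters.

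Lower levels of the same members recurred in each cluster of the B lineage. Cd79b, Ms4a1, Blnk, Syk, Cd22 and Ptpn6, 6 of the 9, were lower in 5XFAD in all 8 clusters, where 22.2% of the 3148 genes measured in each were. Cd22 ran from -1.30 in cluster 4 to -0.88 in cluster 7, and the intervals of these clusters overlapped. Ptpn6 ran from -1.79 in cluster 0, where it measured 72.7 CPM in 5XFAD and, in WT, 252 CPM, to -0.71 in cluster 2. Syk had its largest difference in cluster 7 and its smallest, -0.25, in cluster 4. Cd72 was lower in 5 clusters and higher in 3 on the scale of cluster totals, from -0.30 in cluster 4 to 0.17 in cluster 2, and its interval excluded 0 only in clusters 0 and 4.

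Cluster 6, led by the IgA heavy chain gene and Jchain, had 2 of 9 members at or below -1, where 2.45% of its 4049 tested genes were. After thinning to 3000 UMIs per cell the count was 1, as Blnk was then at -0.81. The members at or below -1 on all UMIs were Ptpn6, at 63.0 CPM in 5XFAD against 135 CPM in WT (-1.10, -1.58 to -0.63), and Blnk (-1.04). Cd22 followed at -0.99, at 58.2 and 116 CPM. In cluster 7, led by immediate early genes, 1 of 9 members was at or below -1, against 4.45% of its 3323 tested genes. It was Syk, at 101 CPM in 5XFAD against 281 CPM in WT (-1.48, -1.89 to -1.08). Cd22 was at -0.88 and Ptpn6 at -0.97 there, close to Cd79b at -0.87. After thinning, Ptpn6 was at -1.21 and Cd79b at -0.79, so 2 members, Syk and Ptpn6, were at or below -1. On all UMIs the mean ratio in this cluster was -0.57 for the brakes and -0.56 for the activating members. The activated B cell markers, which lead cluster 7, summed to 6094 CPM in 5XFAD and 6603 CPM in WT in that cluster. In the B cell-like class they summed to 1335 and 1750 CPM. In cluster 5, a part of that class with more cells in WT, they summed to 3130 CPM over both libraries. Their part in the ratios was not tested.

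Shares of cells with a UMI differed between the libraries in the direction of the levels for the 8 members other than Cd72. Each cell was thinned to 3000 UMIs, which left 2327 cells of 5XFAD and 2454 of WT in the B cell-like class and left out 37 and 84. Ptpn6 was seen in 18.8% (17.2 to 20.4) of cells in 5XFAD and 41.0% (39.0 to 43.0) in WT, and Cd22 in 23.6% (21.9 to 25.4) and 43.9% (42.0 to 45.9). Cd72 was seen in 49.2% and 48.9%. Without thinning the shares were 28.9% and 53.7% for Ptpn6, 35.0% and 59.6% for Cd22 and 65.1% and 65.2% for Cd72. Cd22 and Ptpn6 were thus also seen in fewer cells in 5XFAD, and the share for Cd72 was within counting error between the libraries. In cluster 0 of 5XFAD, for example, Cd22 had 0.57 and Ptpn6 0.38 UMIs per cell before thinning. At such counts a lower share follows largely from a lower level, so the shares are not a separate result.

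Among the activating members, Cd79a was seen in nearly every thinned B cell-like cell, 99.3% in 5XFAD and 98.7% in WT. Cd79b was seen in 58.4% and 71.1%, and Ms4a1 in 70.8% and 82.7%. Syk was seen in 42.7% and 57.2%, and Blnk in 24.3% and 36.8%. Btk was the activating member other than Cd79a with the higher share in 5XFAD, 28.7% against 25.0%.

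**Figure D4:**
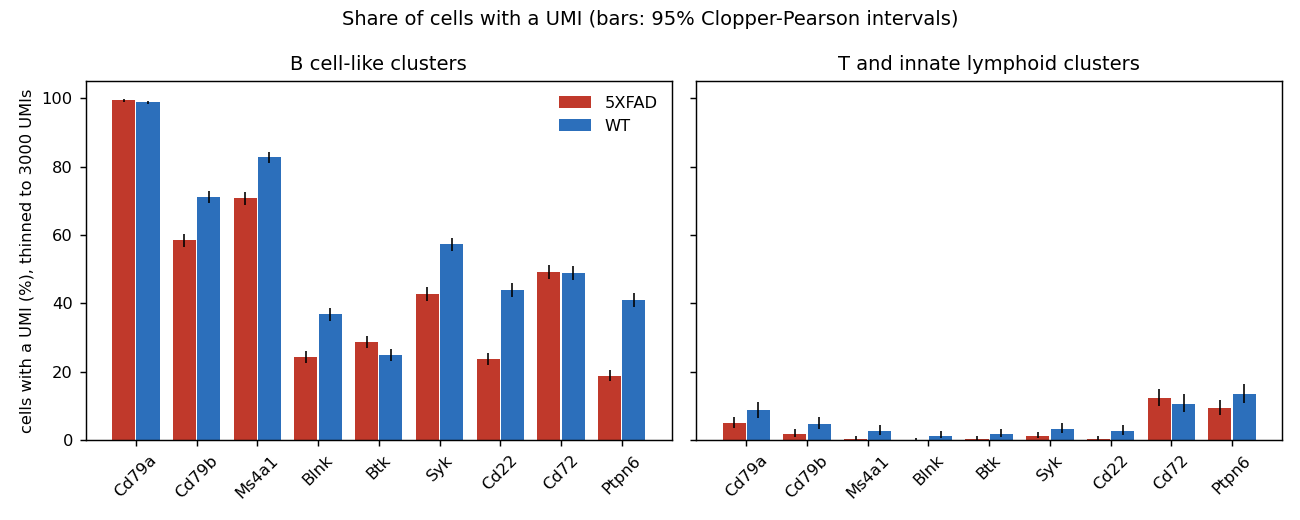
Percent of cells with at least 1 UMI of each member after thinning to 3000 UMIs (vertical axis, from 0) in the B cell-like class and in the T and innate lymphoid clusters of the 5XFAD library (red) and the WT library (blue), with 95% Clopper-Pearson intervals. In B cell-like cells Cd22 and Ptpn6 stand at 23.6% and 18.8% in 5XFAD against 43.9% and 41.0% in WT; in the T and innate lymphoid clusters Cd72 and Ptpn6 stand above the other members.

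The T and innate lymphoid clusters held 755 cells in 5XFAD and 628 in WT, with median depths of 5559 and 5766 UMIs. As a class, 7 of the members were at 5.53% of their B cell-like level or less, and Cd72 and Ptpn6 were not. Of the 7, Syk was uneven, highest in cluster 12 in each library. It measured 17.9 CPM in 5XFAD and 24.7 CPM in WT there, and the medians over these clusters were 1.42 and 18.8 CPM. Cd79a, which T cells are not known to express, had 23.4 CPM in the 5XFAD library and 62.8 CPM in the WT library there, 1.21% and 3.54% of its B cell-like level, and was seen in 5.02% and 8.68% of thinned cells. Cd22 was at 1.87 and 7.09 CPM, 2.06% and 3.41% of its B cell-like level, and was seen in 0.407% and 2.67% of thinned cells. Ptpn6 was at 37.9 and 48.3 CPM, 49.8% (41.9 to 59.0) and 24.6% of its B cell-like level, and was seen in 9.50% and 13.4%. Cd72 was at 42.3 and 49.9 CPM, 17.6% and 19.6% of its B cell-like level, and was seen in 12.3% and 10.7%.

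The proportions of the members to Cd79a were also compared between these clusters and the B cell-like class, and those of Cd72 and Ptpn6 differed. The source of their UMIs in these clusters was not tested. Per 100 UMIs of Cd79a, the T and innate lymphoid clusters of 5XFAD held 181 UMIs of Cd72 and 162 of Ptpn6, and the B cell-like class held 12.4 and 3.92. In WT the values were 79.6 and 77.0 against 14.4 and 11.1. The other members kept between 0.58 and 1.7 times their B cell-like proportion to Cd79a. The level of Cd79a in these clusters was higher in WT than in 5XFAD, with a log2 ratio of -1.42 from 230 UMIs in WT and 100 in 5XFAD. Cd79b (-1.82, from 106 and 35) and Ms4a1 (-2.64, from 80 and 15) were higher in WT too. More B cell transcripts were thus counted in these clusters in WT. Syk had a ratio of -2.35, from 61 UMIs in WT and 14 in 5XFAD, and its source in cluster 12 was not tested. After thinning, Ms4a1 was at -3.36, seen in 16 cells of WT and 3 of 5XFAD, and Syk at -1.65, seen in 20 and 9. Ptpn6 differed less there than in the B cell-like class, with a ratio of -0.35 (-0.67 to -0.03), and Cd72 had a ratio of -0.24 (-0.54 to 0.07), which turned to 0.19 after thinning to 3000 UMIs; the difference between the classes was not tested. Cluster 11, led by Cd7 and Klrd1, had the highest Ptpn6 level of these clusters, 74.0 CPM in 5XFAD against 101 CPM in WT.

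Cluster 15, a mixed cluster of 32 cells of 5XFAD and 37 of WT led by Lyz2, Il1b and C1qa, was the other place where activating members were measured. Syk, which myeloid cells use downstream of Fc receptors and lectins, was at 168 CPM in 5XFAD against 244 CPM in WT, from 32 and 54 UMIs. Blnk was at 57.7 and 77.0 CPM, from 11 and 17 UMIs. Cd79a was at 68.2 and 167 CPM there, from 13 and 37 UMIs, 11 of the 13 being in 1 cell. Ptpn6 was at 42.0 and 163 CPM, from 8 and 36 UMIs, a log2 ratio of -1.96 (-3.27 to -0.83). Cd22 had 0 UMIs in 5XFAD, which allows up to 15.7 CPM (3 counts), and 13 UMIs in WT.

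The other genes of the pathway were read from lists of 74 genes, of which 68 had at least 50 UMIs in the B cell-like class. Of the 68, 57 were lower and 11 higher in 5XFAD, with a median log2 ratio of -0.46 where all genes had -0.12. At or below -1 were 4, and at or above 1 were 0. Over all genes 61.9% were below 0 and 3.89% at or below -1, so the count at or below -1 was near the background. The 4 were Nfatc2 (-1.82), a transcription factor activated by calcium, Ceacam1 (-1.38), an inhibitory receptor that recruits SHP-1, Inppl1 (-1.31), a phosphoinositide phosphatase, and Itpr1 (-1.07), a calcium channel of the endoplasmic reticulum. They include both activators and brakes of the pathway. Ratios of all genes fell with transcript length (below), and neither these 68 genes nor the lists that follow were corrected for it.

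The list of proximal activators, the kinases, adaptors and co-receptors that act beside the 9 members, had 18 of 21 genes lower, 3 higher and a median of -0.48. Vav1 (-0.97), a guanine nucleotide exchange factor, Cr2 (-0.96), the complement co-receptor, Pik3cd (-0.84), a phosphoinositide kinase subunit, and Plcg2 (-0.83), the phospholipase that Btk phosphorylates, lay farthest from 0. The median of this list was close to those of Cd79b and Syk. The downstream list had 17 of 20 lower, 3 higher and a median of -0.53, with the calcium channel Itpr2 at -0.76 beside Nfatc2 and Itpr1.

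The list of other brakes had 33 genes, of which 27 were tested, 22 were lower and 5 higher, with a median of -0.33. Ceacam1 and Inppl1 were its 2 genes at or below -1, followed by Pecam1 (-0.98), another receptor with inhibitory tyrosine motifs, and Cbl (-0.76), a ubiquitin ligase. The median of these other brakes was nearer 0 than the median of either activator list. The greater difference of Cd22 and Ptpn6 was thus not shared by the median of the other inhibitory genes.

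Transcriptional targets that receptor signalling induces early had 10 of 16 genes lower and 6 higher, with a median of -0.22, a share lower that was close to the 61.9% of all genes. Ccl3 (-1.43), Egr3 (-1.42), Cd69 (-1.27) and Ccl4 (-1.17) were its 4 genes at or below -1, where 3.89% of all genes were. Cluster 5 contributed 396 WT cells but only 119 5XFAD cells to the B cell-like class. The activated B cell markers, Egr3 among them, summed to 3130 CPM there and to 877 to 1800 CPM in clusters 0 to 4. The early targets were not recomputed without cluster 5, so the part of this unequal mix in their ratios was not tested. Surface partners and relatives of CD20 had 10 of 12 lower and 2 higher, with a median of -0.24. Ms4a4b (-0.84) and Ms4a6b (-0.51), relatives of Ms4a1, were lower and the tetraspanin gene Cd9 (0.81) was higher. Of 12 immunoglobulin constant region genes 8 were tested, 7 were lower and 1 was higher, with a median of -0.57. Igha was at -1.10 and Iglc1, a lambda light chain gene, at -0.62.

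The genes whose pattern over 16 clusters and both libraries was most like each member were mostly genes of B cells, which a correlation over B cells and other cells favours. The measure was Pearson's r of log2(CPM + 10) over 32 sums, and points of a library share its background and depth. For Cd79a, Ly6d, Fcmr and H2-DMb2 each had r = 0.99, and for Ms4a1, H2-Ob, Pax5 and H2-DMb2 did. For Cd79b, Fcrla (0.98), Pax5 (0.97) and Bank1 (0.97) came first, for Btk, Pou2af1 and Fcmr (0.99 each), and for Cd22, Gga2, Cr2 and Pax5 (0.98 each). For Blnk, Rasgrp3 (0.99), Wdfy4 (0.97) and Pkig (0.97) came first, and for Syk, H2-DMa, Pkig and Cyp4f18 (0.97 each).

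Cd72 and Ptpn6, the members also measured in T and innate lymphoid clusters, had the least close neighbours. Those of Cd72 were Pkig (0.94), Rasgrp3 (0.93) and Pax5 (0.93), and those of Ptpn6 were Chst3 (0.86), Filip1l (0.86) and Slc15a4 (0.85). Within the B lineage, over the 8 clusters of 1 library, Cd22 and Ptpn6 varied together, with r = 0.73 in 5XFAD and 0.79 in WT. Cd79b and Blnk gave 0.71 and 0.82, and Cd79b and Syk 0.93 and 0.51. Btk and Ptpn6 gave -0.49 and 0.52, opposite signs in the 2 libraries. These correlations rest on 8 points each and are given as descriptions.

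Transcript length moved with the ratios of all genes in the B cell-like class. With 9598 of the 9681 genes in 10 groups of like number by longest annotated transcript, the median log2 ratio went from 0.21 in the group of the shortest to -0.41 in that of the longest. Among the members the longest transcripts run from 1431 bases for Cd79b and 1457 for Cd79a to 5363 for Syk, with 3974 for Cd22 and 2308 for Ptpn6. Relative to the median of genes of like length, Ptpn6 was at -1.41, Cd22 at -1.01, Cd79b at -0.59, Blnk at -0.46, Ms4a1 at -0.32, Syk at -0.25, Cd72 at -0.03, Cd79a at 0.02 and Btk at 0.31. The order of Ptpn6 and Cd22 below the other members was the same as before, Syk moved from -0.58 to -0.25, and Cd79a from 0.13 to 0.02. Why the ratios follow length was not tested.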

How the data were processed

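The members and gene lists were chosen with earlier results of these data known. Reads were processed with Cell Ranger (6.0.1) against mm10, per the submitters' processing notes, and filters on cells are not described there. The deposited table holds natural log values, ln(1 + UMIs per 10000), and the deposited metadata give total counts and cluster numbers per cell. The deposited percent of mitochondrial UMIs was summarised by its median only. Counts were recovered by inverting the log: 11758401 of 11758401 nonzero values were whole within 1e-06, and totals matched in 6886 cells. The deposited SCT table, also natural log values, was an alternative.

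Of the names AD and WT in the metadata, AD was taken as 5XFAD, the other title. The libraries share 3 barcodes. The depth of 5XFAD was 18604847 UMIs, with a median of 5209 per cell, and that of WT was 17939499, with a median of 4938. Doublets were not called.

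UMIs were summed per cluster or class and scaled to CPM by its total. Ratios have exact conditional binomial intervals, levels Poisson intervals and shares Clopper-Pearson intervals, at 95%. A gene entered counts with 50 UMIs or more in the libraries together, and a log2 ratio of 1 in size was the threshold. The interval of the brakes minus the activating members combines the counting errors of the 9 genes. With 1 library per genotype there was no test. The calculation was tested on simulated counts for 9681 genes of the B cell-like class: the true ratio lay in 95.6% of intervals, and the recovered share was 97.0% for genes made to differ by 1 (log2) and 100% for genes made to differ by 2. The simulated counts were Poisson, without differences between cells, mice or libraries, so they check the calculation only.

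Named genes are all members, the 4 genes of each list farthest from 0 in the B cell-like class, the 3 genes most like each member, and Ighm, Ighd and Igkc. A few genes this rule would name are not reported here. Gene positions and transcript lengths are from GENCODE on GRCm38. Python 3.11.15, numpy 2.4.6, scipy 1.17.1, pandas 2.3.3 and matplotlib 3.10.9 were used.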

Additional observations from a re-analysis of the deposited data

Results flagged for a closer look

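The ratio of Cd79a had opposite directions in different clusters, which is why it is listed here. In cluster 6, a B lineage cluster, its log2 ratio of 5XFAD over WT was 0.26. In cluster 10, led by the T cell genes Cd40lg and Il17a, it was -2.12, with 18.4 CPM in 5XFAD against 80.1 CPM in WT, from 13 and 49 UMIs. The difference between the clusters was not tested, as each genotype is 1 library. Cluster 10 is a T cell cluster. Over the T and innate lymphoid clusters, cluster 10 among them, Cd79a was at 62.8 CPM in WT against 23.4 CPM in 5XFAD. The 230 UMIs of WT lay in 86 of 628 cells, with up to 20 in 1 cell. The 100 UMIs of 5XFAD lay in 72 of 755 cells, with up to 12 in 1 cell. The source of these UMIs and its part in the ratio were not tested.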

How the results depend on the processing

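No paired analysis was possible because each genotype is 1 pooled library, and for the same reason no replicate could be left out. The alternatives changed the scaling, the clusters, the weights of clusters and cells, the cells kept, the depth or the table; the correction for transcript length and the subtraction of the T and innate lymphoid level were chosen after seeing the data. Ptpn6 ranged from -1.96 to -1.22 and Cd22 from -1.24 to -1.01, and 2 members were at or below -1 under each alternative. Median-of-ratios scaling shifts all ratios alike, so it could not change the brakes minus the activating members. That difference moved to -0.80 after subtraction of the T and innate lymphoid level and otherwise lay between -0.60 and -0.55. The -1.96 of Ptpn6 came from the same subtraction, which took away 37.9 of 76.0 CPM in 5XFAD and 48.3 of 196 CPM in WT. Cd72 and Ptpn6 were at 17.6% or more of their B cell-like level in those clusters, so for them this step cannot be read as a correction for background. Cd72 changed direction, to 0.044 under median-of-ratios scaling and to 0.0090 after thinning to 3000 UMIs, and in the T and innate lymphoid clusters from -0.24 to 0.19 after thinning. The count of other pathway genes at or below -1 was 4 and ran from 3 to 6. Cd79a in the T and innate lymphoid clusters moved to -1.06 without cells of 2500 or more genes. Depth limits the T and innate lymphoid ratios of Blnk, Btk and Cd22, which rest on under 50 UMIs each.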
